A study of Mus musculus with 2 samples.

Results

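The nuclear genes of oxidative phosphorylation were examined in chromatin accessibility maps of the adult mouse hippocampus. Members were the nuclear protein-coding genes of GENCODE M21 whose symbols begin with Nduf followed by a, b, c, s or v and a digit, with Uqcr, with Cox and a digit from 4 to 8, or with Atp5, together with Sdha, Sdhb, Sdhc and Sdhd. This rule took 85 gene models (84 symbols, since Atp5o names 2 models) of 21851 nuclear protein-coding genes: 37 of complex I, 4 of complex II, 8 of complex III, 18 of complex IV and 18 of complex V. The rule uses symbols and no measured value. The symbol rule also takes a few genes that are not classical subunits, such as Cox7a2l, which acts in supercomplexes of the respiratory chain, and Atp5s, an accessory factor.

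Oxidative phosphorylation takes place at the inner mitochondrial membrane. Complexes I and II pass electrons from NADH and succinate to ubiquinone, complex III hands them to cytochrome c, complex IV transfers them to oxygen, and complex V (ATP synthase) uses the resulting proton gradient to make ATP. The complexes other than complex II are built from a few proteins encoded in mitochondrial DNA and many encoded in the nucleus. Neurons draw most of their ATP from this route. Several subunits of complex IV exist as a ubiquitous form and a form found mainly in muscle, testis, lung or other tissues.

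The maps came from DNase-seq, in which DNase I cuts DNA that is not covered by nucleosomes or bound proteins. There was 1 group of 2 biological replicates from male B6CASTF1/J mice, the cross of C57BL/6J and CAST/EiJ, aged 8 to 10 months. Each replicate was a pool of 2 biosamples labelled as layer of hippocampus, with no layer or treatment named. Both replicates had the same donor label, so the spread between them may not be that between animals. With 1 group there was no contrast to test, and all comparisons with other genes are descriptions without p-values.

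A peak is a cluster of cuts called in 1 replicate, and its height is the value that the authors gave it, on a scale that is not stated. Replicate 1 had 144270 peaks and replicate 2 had 124426, with 348892 and 327771 footprints, the short protected stretches inside accessible DNA that mark candidate binding sites. A gene was called open when a peak touched the 1000 bp to either side of a start site of a protein-coding transcript, and the tallest such peak gave its promoter height. Peaks were present at 8 of 8 promoters of excitatory neuron markers in both replicates, 6 of 8 of oligodendrocytes, 7 of 8 of astrocytes, 2 of 8 of vascular mural cells, 1 of 8 of heart and skeletal muscle and 1 of 8 of testis germ cells. In bulk tissue, fewer cells with an open promoter and a less accessible promoter in each cell cannot be told apart.

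Nearly all members were open. A promoter peak was called in both replicates for 78 of 85 members, in neither for 7, and in 1 replicate alone for 0. Of all genes, 64.9% had a promoter peak in replicate 1, 63.7% in replicate 2 and 62.6% in both. Complexes II and III were open throughout (4 of 4 and 8 of 8), complex I in 36 of 37, complex V in 17 of 18 and complex IV in 13 of 18.

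The open members had tall peaks. Their median height was 6.01 in replicate 1 and 4.92 in replicate 2 (5.47 ± 0.769, SD, n = 2), against 3.59 and 2.89 (3.24 ± 0.498) for all genes open in both replicates. Of the 78, 66 lay above the all-gene median of the mean height and 12 below it. The highest decile of all open genes held 10 members, and the lowest quartile held 2, Cox6b2 and Cox7a1.

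**Figure D1:**
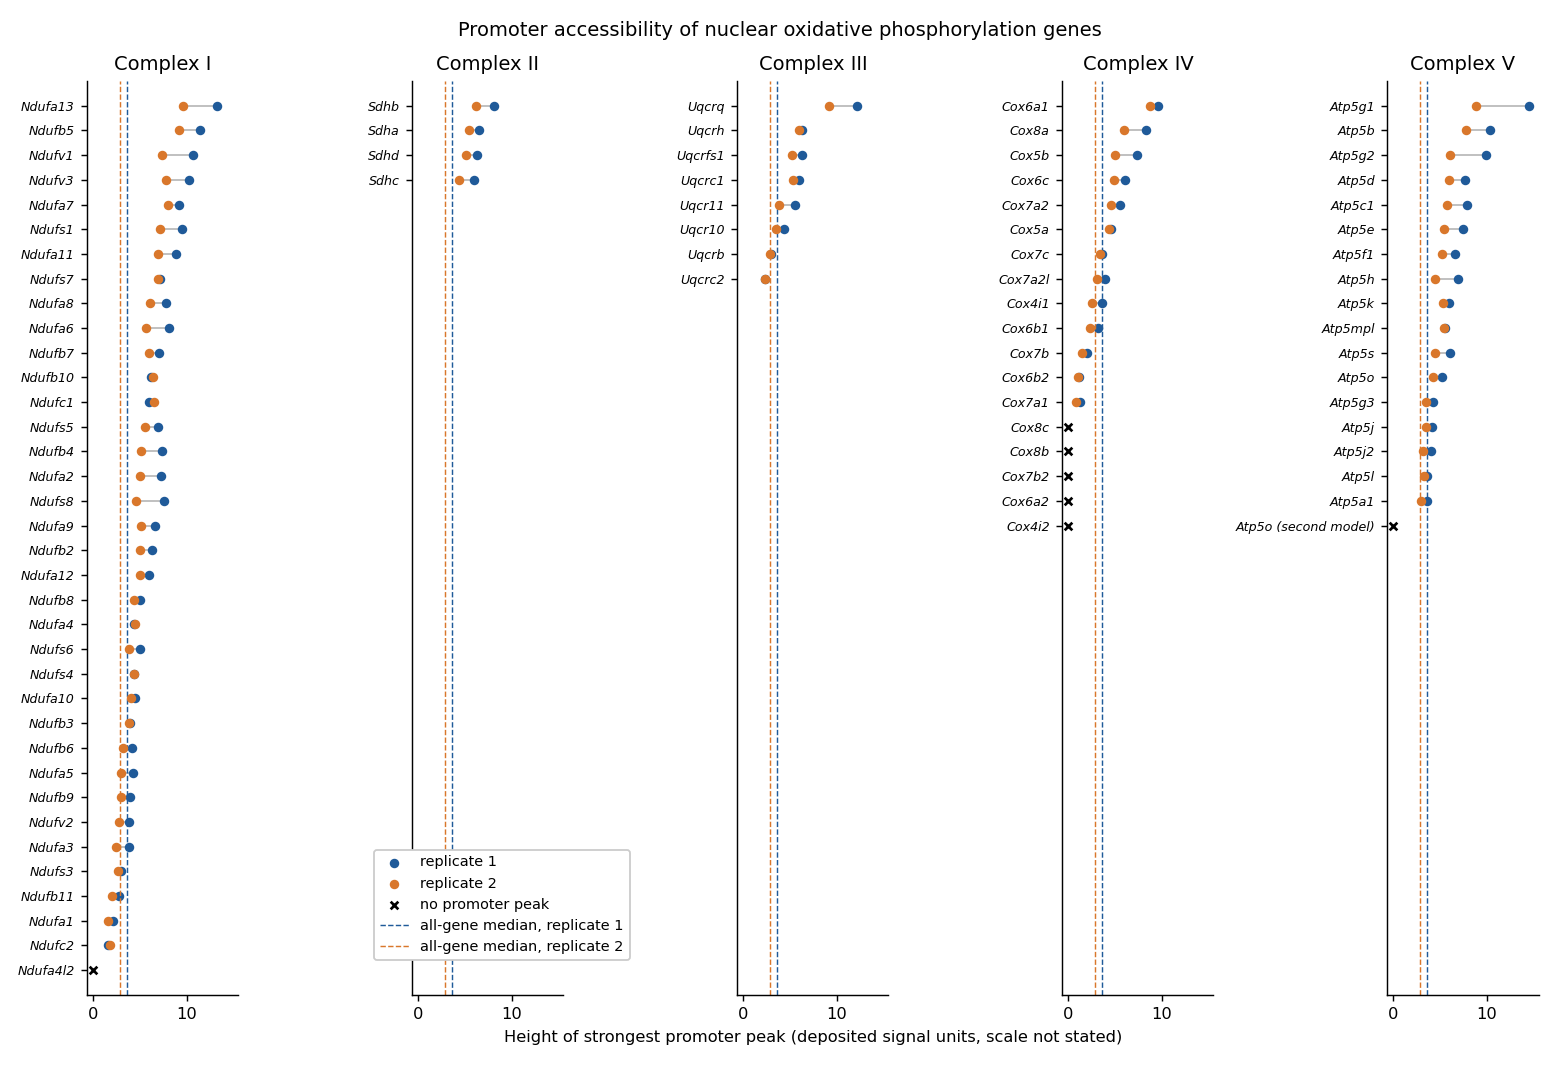
Height of the strongest promoter peak (deposited signal units) of 84 of the 85 members, by complex, with replicate 1 in blue, replicate 2 in orange and members without a promoter peak as crosses at 0. The dashed lines are the medians of all genes open in both replicates (3.59 and 2.89), and many members of each complex lie to their right.

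The share of open genes rose with the CpG content of the start site, so the members were also set beside genes of like CpG content. Genes were ranked by the highest ratio of observed to expected CpG within 500 bp of a start site and divided into deciles, of which the lowest had 4.62% open in both replicates and the highest 97.2%. In deciles 5 to 10, 91.3% of all genes were open in both replicates, and 75 of 75 members were. Median heights there were 6.02 and 4.96 for the members and 4.03 and 3.24 for all genes, so the members stood higher than genes of the same CpG range in both replicates. The other 10 members lay in deciles 2 to 4, where 24.5% of all genes were open in both replicates and 3 of the 10 members were.

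**Figure D2:**
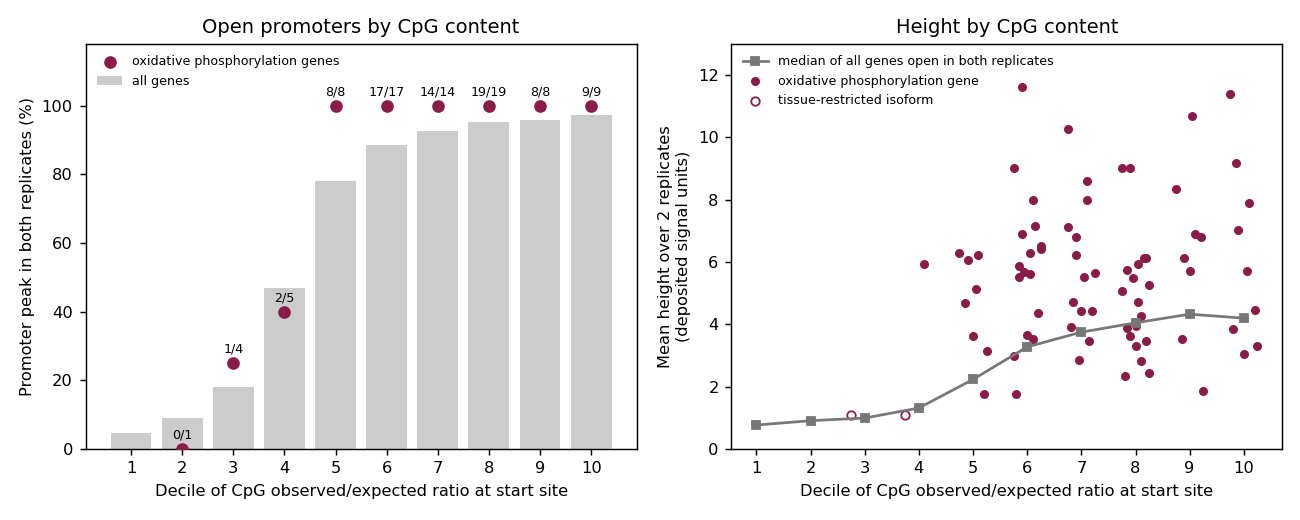
Left, percent of genes with a promoter peak in both replicates by decile of CpG observed/expected ratio, for all genes (grey bars) and members (points, with counts). Right, mean height over 2 replicates of open members (filled, with tissue-restricted isoforms as open circles) and the median of all open genes (grey line). All 75 members of deciles 5 to 10 were open, against 91.3% of all genes there.

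Complex I, the NADH dehydrogenase, had median heights of 6.23 and 5.03. Its tallest assigned peak belonged to Ndufa13, an accessory subunit, at 13.2 and 9.59. That peak was centred 763 bp upstream of the Ndufa13 start and also lay within reach of Yjefn3 and Tssk6, and within 500 bp of the Ndufa13 start the tallest peak measured only 0.925 and 0.736. The height of Ndufa13 therefore rests on a peak that cannot be assigned to 1 gene.

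Ndufb5, an accessory subunit whose peak was shared with the mitochondrial ribosomal gene Mrpl47, stood next with 11.4 and 9.14. All 7 core subunits on the list of complex I, which carry the flavin, the iron-sulfur clusters or the quinone site, were open, with median heights of 7.55 and 6.66. Among these, Ndufv1, the NADH-binding flavoprotein, had the tallest peak (10.7 and 7.37) and Ndufs3 the lowest by mean (2.99 and 2.71). By the mean of the replicates, the lowest open complex I promoter was that of Ndufc2, an accessory subunit, at 1.61 and 1.87.

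Complex II, succinate dehydrogenase, has no mitochondrially encoded subunit and its 4 genes lay between 5.95 and 8.14 in replicate 1. Sdhb, the iron-sulfur subunit, measured 8.14 and 6.15. Sdha, the flavoprotein, measured 6.47 and 5.42, and the membrane anchor Sdhc was lowest at 5.95 and 4.33. All 4 lay above the all-gene median of the mean height.

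In complex III the median heights were 5.79 and 4.50, with 6 of 8 members above the all-gene median. Uqcrq, a small subunit near the quinone-binding region, stood far above the others at 12.2 and 9.22. Uqcrh, the acidic hinge protein that contacts cytochrome c1, was second by the mean of the replicates at 6.24 and 5.999. Uqcrc2, a core protein of the matrix arm, was lowest at 2.30 and 2.36, so complex III spans a wide range within 1 enzyme.

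Complex V, the ATP synthase, had median heights of 6.08 and 5.22, and all 17 open members lay above the all-gene median. Atp5g1, Atp5g2 and Atp5g3 encode the same mature subunit c of the proton-driven ring with different import sequences. Atp5g1 measured 14.4 and 8.81, the tallest in replicate 1 among all members. Atp5g2 measured 9.90 and 6.10 and Atp5g3 4.24 and 3.49, and this order held in both replicates. The gene of the catalytic beta subunit, Atp5b, measured 10.3 and 7.76, while that of its alpha partner, Atp5a1, was by the mean of the replicates the lowest open promoter of the complex, at 3.64 and 2.98.

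The symbol Atp5o, the stalk subunit OSCP, named 2 gene models. The first was open at 5.17 and 4.27. The other is annotated on chr16:91684398-91926982 (mm10), and its nearest peak lay 4539 bp from its only start site. Atp5f1, the peripheral stalk subunit b, was open only through a peak centred 748 and 758 bp downstream of its start (6.64 and 5.22). This peak was shared with the neighbouring gene Wdr77, and no peak lay within 500 bp of the Atp5f1 start in either replicate.

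Complex IV, cytochrome c oxidase, was the lowest of the complexes, with median heights of 3.95 and 3.40 for its 13 open members. These 13 include the restricted isoforms Cox6b2 (1.12 and 1.08) and Cox7a1 (1.31 and 0.872), which lower the medians. Complex IV holds 5 of the 7 members without a promoter peak. Its tissue-restricted isoforms are compared next with the ubiquitous forms of the same subunits.

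The restricted forms were Cox6a2, Cox7a1 and Cox8b (heart and skeletal muscle), Cox6b2, Cox7b2 and Cox8c (mainly testis), Cox4i2 (lung and some vascular cells) and Ndufa4l2 (a hypoxia-responsive gene also found in vascular mural cells). Of these 8, 2 had a promoter peak in both replicates and 6 had none in either. Cox6b2 measured 1.12 and 1.08, and Cox7a1 measured 1.31 and 0.872. Cox4i2, Cox6a2, Cox7b2, Cox8b, Cox8c and Ndufa4l2 had no peak, no footprint and no interval at a false discovery rate of 0.05 or less within the promoter window of either replicate. Their nearest peaks lay 1847 and 1887 bp (Ndufa4l2), 1914 and 1914 bp (Cox6a2), 2345 and 2365 bp (Cox7b2), 2875 and 2875 bp (Cox8b), 8945 and 8925 bp (Cox8c) and 11487 and 11487 bp (Cox4i2) from a start site.

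All 7 ubiquitous partners were open in both replicates. Cox6a1, a regulatory subunit, measured 9.58 and 8.74, Cox8a 8.26 and 5.98, and Cox7a2 5.58 and 4.56. Ndufa4, first counted in complex I and later placed in complex IV, measured 4.34 and 4.53. Cox4i1, a large nuclear-encoded subunit, measured 3.59 and 2.52, Cox6b1 3.24 and 2.39, and the X-linked Cox7b 2.02 and 1.51. In the 2 pairs with both genes open, the restricted form was lower in each replicate and the ranges did not overlap. The restricted forms of these pairs lay in CpG deciles 2 to 4, where all open genes had median heights of 1.21 and 1.04. Their partners lay in deciles 5 to 10, where all open genes had 4.03 and 3.24. The heights of the restricted forms were thus near those of all open genes of like CpG content.

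**Figure D3:**
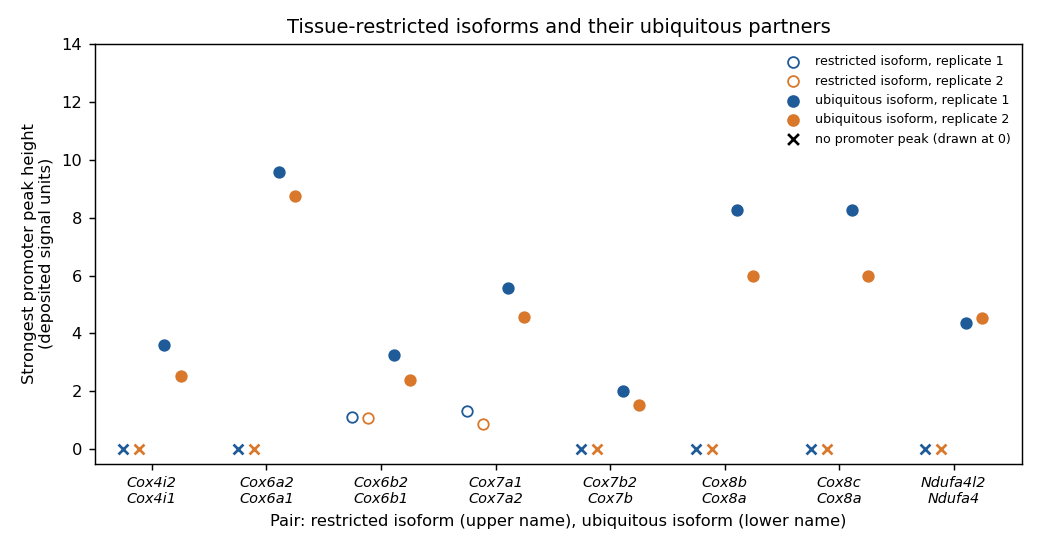
Height of the strongest promoter peak (deposited signal units) for 8 pairs of isoforms, with restricted forms as open circles, ubiquitous forms as filled circles, replicate 1 in blue, replicate 2 in orange and genes without a promoter peak as crosses at 0. Heights exist for both genes in 2 pairs (Cox6b2 with Cox6b1 and Cox7a1 with Cox7a2), where the ubiquitous form is the taller in both replicates. Cox8a is drawn for both Cox8b and Cox8c.

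The split between isoforms went with CpG content. All 8 restricted genes fell in deciles 2 to 4 and all 7 partners in deciles 5 to 10. The 2 open of 8 (25%) are near the 24.5% of all genes of deciles 2 to 4, so this share says nothing particular about the isoforms. The partners' 7 of 7 stand beside 91.3% in deciles 5 to 10. The part of CpG content in the split was not tested. Marker promoters of the tissues and cells named above were open in both replicates at 1 of 8 (heart and skeletal muscle), 1 of 8 (testis germ cells) and 2 of 8 genes (mural cells). The median CpG ratios of these markers, 0.239, 0.366 and 0.462, also fall in deciles 2 to 4, where 24.5% of all genes were open. The median of the oligodendrocyte markers, 0.458, falls in decile 4, where 46.8% of all genes were open. Those of the excitatory neuron and astrocyte markers, 0.506 and 0.496, fall in decile 5, where 78.1% were. The muscle marker's peak was centred 1047 and 1027 bp upstream of a start site. The part of rare mural cells in the bulk tissue was not tested.

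The 100 bases just upstream of the start are shown for 5 pairs, 3 with a wide gap in CpG number, Cox4i2 with Cox4i1, whose restricted form is also rich in CpG, and Cox7b2 with Cox7b, which run the other way. Each stretch is given 5′ to 3′ on the strand of its gene, from the GRCm38 sequence (mm10), with every CpG in capitals, and none overlaps an annotated exon. The stretches are Cox6a2 (chr7:128206388-128206487, minus) and Cox6a1 (chr5:115348982-115349081, minus), Cox8b (chr7:140900447-140900546, minus) and Cox8a (chr19:7217617-7217716, minus), Cox7a1 (chr7:30184044-30184143, plus) and Cox7a2 (chr9:79759879-79759978, minus), Cox4i2 (chr2:152754073-152754172, plus) and Cox4i1 (chr8:120668122-120668221, plus), and Cox7b2 (chr5:71548206-71548305, minus) and Cox7b (chrX:106015600-106015699, plus).
Cox6a2: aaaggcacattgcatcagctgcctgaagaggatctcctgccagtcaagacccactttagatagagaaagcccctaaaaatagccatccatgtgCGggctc
Cox6a1: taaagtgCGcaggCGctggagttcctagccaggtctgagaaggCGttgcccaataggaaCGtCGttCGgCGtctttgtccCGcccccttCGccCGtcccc
Cox8b: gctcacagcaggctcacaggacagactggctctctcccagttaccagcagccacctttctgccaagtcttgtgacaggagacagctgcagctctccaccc
Cox8a: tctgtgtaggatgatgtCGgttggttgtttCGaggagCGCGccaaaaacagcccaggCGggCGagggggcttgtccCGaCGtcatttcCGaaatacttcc
Cox7a1: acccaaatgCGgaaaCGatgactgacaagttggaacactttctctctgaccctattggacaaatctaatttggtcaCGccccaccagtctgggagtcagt
Cox7a2: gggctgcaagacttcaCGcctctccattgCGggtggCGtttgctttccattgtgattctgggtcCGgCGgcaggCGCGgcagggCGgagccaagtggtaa
Cox4i2: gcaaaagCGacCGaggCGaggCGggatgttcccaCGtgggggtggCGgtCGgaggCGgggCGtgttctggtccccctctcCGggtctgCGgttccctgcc
Cox4i1: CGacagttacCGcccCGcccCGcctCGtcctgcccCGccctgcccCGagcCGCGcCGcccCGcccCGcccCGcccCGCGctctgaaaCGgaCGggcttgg
Cox7b2: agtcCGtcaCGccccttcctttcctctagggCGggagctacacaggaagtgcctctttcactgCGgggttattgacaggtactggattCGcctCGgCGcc
Cox7b: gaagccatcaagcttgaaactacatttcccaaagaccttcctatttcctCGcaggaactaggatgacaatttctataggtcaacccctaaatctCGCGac
Cox6a2 had 1 CpG in this stretch and Cox6a1 had 10, Cox8b had 0 and Cox8a 9, and Cox7a1 had 3 and Cox7a2 8. In the pairs not printed, Cox6b2 had 4 and Cox6b1 8, Cox8c had 6 and Cox8a 9, and Ndufa4l2 had 2 and Ndufa4 7. Cox4i2 had 11 CpG beside 17 in Cox4i1 and no peak. Cox7b2, also without a peak, had 7 CpG and thus more than the 3 of its open partner Cox7b. The restricted form had fewer CpG in this stretch in 7 of 8 pairs. Over the wider 1000 bp around its start, the CpG ratio of Cox4i2 was 0.379 and that of Cox4i1 0.998, while Cox7b2 (0.468) and Cox7b (0.482) lay close to each other on either side of the limit between deciles 4 and 5.

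Members often shared their promoter with a second gene. A protein-coding gene began on the opposite strand within 1000 bp upstream of 23 of 85 members (27.1%), against 9.00% of all genes. The strongest promoter peak also lay within the window of another coding gene for 27 of 78 open members (34.6%) in each replicate, against 16.7% and 16.9% of all open genes. A gene starting on the opposite strand was present at 3 of 4 genes of complex II and at 1 of 18 of complex IV (Cox4i1, with Emc8). Members with such a neighbour had median heights of 5.95 and 4.33, below the 6.16 and 4.71 of all open genes with one, while members without one had 6.02 and 5.06 against 3.22 and 2.60. Several partners, picked here after the list was seen, work in mitochondria or in translation: Mrpl36 beside Ndufs6, Timm8b beside Sdhd, Rps28 beside Ndufa7 and Eef1b2 beside Ndufs1. Atp5j, a coupling factor of ATP synthase, lies head to head with Gabpa, which encodes the DNA-binding subunit of the ETS factor GABP (NRF-2), and both genes were assigned the same peak (4.18 and 3.49). For a shared peak, the height cannot be divided between the genes.

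The members' peaks were slightly shorter than those of all open genes and close to the start. Their median length was 220 bp in each replicate, against 240 bp for all open genes. The midpoint of the strongest peak lay a median of 41.5 and 43.5 bp from the nearest start site, against 71 and 74 bp for all open genes. More than 1 promoter peak was present at 30 (38.5%) and 32 (41.0%) of 78 members, against 59.9% and 58.5% of all open genes. All 78 open members had at least 1 footprint in the strongest peak in both replicates, as did 98.2% and 98.0% of all open genes. The mean number was 5.06 and 5.09 per member and 4.67 and 4.80 over all open genes. Within CpG deciles 5 to 10 it was 5.09 and 5.07 per member and 4.87 and 5.02 over all open genes, a smaller difference. Most footprints by mean lay in the peaks of Ndufs7 (9 and 12), Ndufv2 (10 and 10), and, tied, Ndufa4 (9 and 9) and Cox7a2l (8 and 10), none of which was among the 2 tallest promoters of its complex. In that order these peaks were long, at 540 and 540, 580 and 580, 380 and 360, and 420 and 420 bp, against a member median of 220 bp. Per 100 bp they held 1.67 and 2.22, 1.72 and 1.72, 2.37 and 2.5, and 1.90 and 2.38 footprints. The member medians per 100 bp were 2.00 and 2.12.

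The 3 X-linked members were low. Ndufb11 measured 2.76 and 2.09, Ndufa1 2.13 and 1.59 and Cox7b 2.02 and 1.51. Their median of 2.13 and 1.59 was close to that of all open X-linked genes (1.96 and 1.505) and below that of autosomal genes (3.68 and 2.96). The mice were male, with 1 copy of the X chromosome, and the part of copy number was not tested.

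Known regulators of these genes bind short DNA motifs: NRF1 (nuclear respiratory factor), ETS factors such as GABP, YY1, and SP/KLF factors. Exact consensus strings were counted on both strands in the 200 bp at the midpoint of the strongest promoter peak. The NRF1 string GCGCANGCG occurred at 22 and 22 of 78 members (28.2% in each replicate), against a mean of 13.1% of all open genes. The YY1 string AANATGGCG occurred at 13 and 14 members (a mean of 17.3% against 4.29%). At members, the ATG of 71.4% and 66.7% of the YY1 matches was the annotated start codon, against 31.8% and 31.2% at all open genes. The YY1 shares without these matches were not counted. The ETS string CCGGAAG occurred at 18 and 16 members (21.8% against 14.9%). The SP/KLF string GGGCGGG was less frequent at members, at 21 and 20 of 78 (26.3% against 39.6%).

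Within CpG deciles 5 to 10 the differences had the same direction. There, NRF1 matched 29.3% of members in each replicate against 14.7% and 14.8% of all genes, and YY1 17.3% and 18.7% against 4.89% and 4.95%. SP/KLF matched 26.7% and 25.3% against 44.1% and 42.6%. The remaining motifs are given over all 78 open members and all open genes, as means of the replicates. CRE (TGACGTCA) occurred at 6 members in each replicate (7.69% against 3.45%) and NFY (CCAATNAG) at 7 (8.97% against 8.97%). The ERR string TCAAGGTCA, of the estrogen-related receptors, occurred at 2 members, Atp5g3 and Sdhd (2.56% against 0.0996%), a count too small to compare. USF (TCACGTG) matched 1.28% against 5.14%, AP-1 (TGANTCA) 1.28% against 2.79%, CTCF (AGGGGGCGC) 2.56% against 2.22% and ZNF143 (ACTACAATT) 0.641% against 0.573%.

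**Figure D4:**
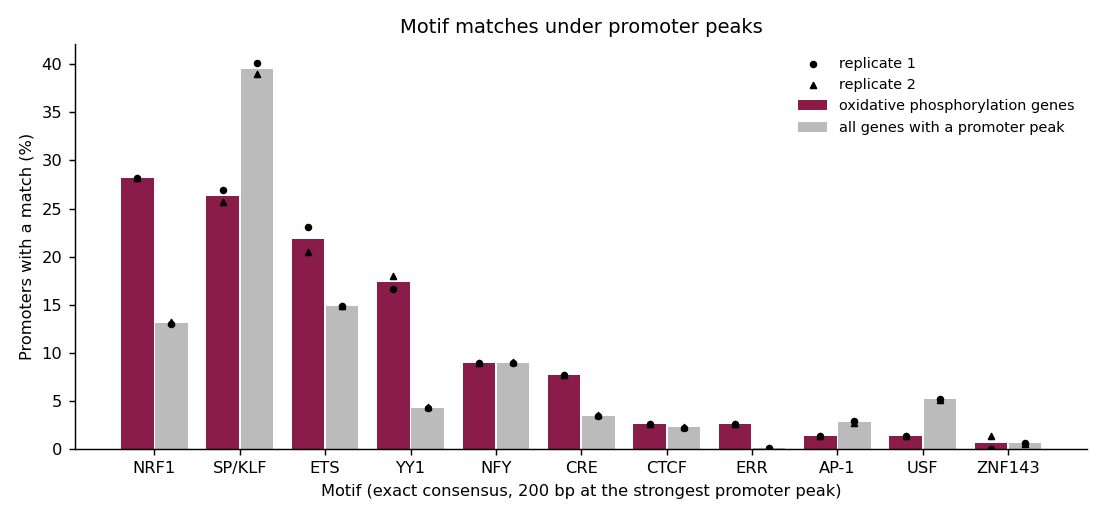
Percent of open promoters with an exact match to each motif in the 200 bp at the strongest promoter peak, for members (dark bars, n = 78) and all genes with a promoter peak (grey bars). Bars are means of 2 replicates and the circle and triangle are replicates 1 and 2. NRF1, YY1 and ETS matches were more frequent at members (28.2%, 17.3% and 21.8%) and SP/KLF matches less frequent (26.3% against 39.6%). Most YY1 matches at members covered the annotated start codon.

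NRF1, ETS or YY1 was present in both replicates at 42 of 78 members, at least 2 of the 3 at 9, and all 3 at 0. At the other 36 members, none of the 3 strings was present in both replicates. The same counts over all genes were not made, so these numbers have no background beside them. Singly, the strings occurred at 13.1% (NRF1), 14.9% (ETS) and 4.29% (YY1) of all open genes.

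The motifs differed in how often they lay in footprints. NRF1 matches at members fell wholly inside a footprint in 80.0% and 82.9% of 35 and 35 cases, against 70.0% and 69.6% for all open genes. ETS matches did so in 31.8% and 31.6% of 22 and 19 cases (20.8% and 20.3%). For SP/KLF it was 67.9% and 69.2% of 28 and 26 (55.4% and 52.9%). For YY1 it was 21.4% and 13.3% of 14 and 15 (23.4% and 16.5%). Overlapping matches on the 2 strands were counted separately and several could lie in the same promoter, so the cases are not independent. An NRF1 match inside a footprint of both replicates was found at 18 members, an ETS match at 4 and a YY1 match at 1. The same counts over all genes were not made. At all open genes, too, NRF1 matches lay in footprints more often than ETS or YY1 matches. The sites of the tallest of these members' promoters are printed below, 5′ to 3′, with the motif in capitals and 10 bases to either side. They are on the plus strand of mm10 except that of Cox6a1. Positions are Ndufa13 chr8:69903223-69903251, Cox6a1 chr5:115349057-115349085 and Atp5g2 chr15:102671070-102671098 (NRF1), Atp5g1 chr11:96075914-96075942 (YY1), and Sdhb chr4:140961267-140961293, Ndufb7 chr8:83566728-83566754 and Atp5k chr5:108434371-108434397 (ETS).
Ndufa13, NRF1: gcgcgccactGCGCACGCGtcctgtccct
Cox6a1, NRF1: cggataaagtGCGCAGGCGctggagttcc
Atp5g2, NRF1: ggaaggctctGCGCATGCGcggccggagc
Atp5g1, YY1: ccttcaacacAAAATGGCGaccaaggtgc
Sdhb, ETS: ctcggagaaaCCGGAAGcggccttcca
Ndufb7, ETS: cctagatgacCCGGAAGacactgaagg
Atp5k, ETS: gaccttcgcgCCGGAAGctcaactgag
The Ndufa13 site belongs to the distant peak described above, 679 bp upstream of the start. The Cox6a1 site lay 90 bp upstream, and the 3 ETS sites lay 64 to 77 bp downstream of a start site. A match is a run of letters, and binding was not measured here.

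Many YY1 matches at members lay just inside the gene. Of 14 and 15 matches at members, 11 and 12 were on the strand of the gene (78.6% and 80.0%), an orientation also held by 66.0% and 65.8% of the matches at all open genes. In 10 of the matches of each replicate (71.4% and 66.7%) the ATG of the string was the annotated start codon, against 31.8% and 31.2% of matches at all open genes. This check was made after the positions were seen. The matches on the strand of the gene and downstream of a start site, other than that of Ndufa2, are given here in the order of their distance from the nearest start site, on the strand of the gene, with the YY1 string in capitals.
Ndufs6: ggtcaccggcAAGATGGCGgcggtgctga
Ndufa9: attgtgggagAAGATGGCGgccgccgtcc
Ndufc1: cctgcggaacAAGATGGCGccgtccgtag
Ndufa7: gagcggaaggAATATGGCGtccgctactc
Uqcrb: ctctcaggtcAAAATGGCGggccgatctg
Atp5j2: ccaggacttcAAGATGGCGtcactcggtg
Uqcrc1: cggaagttagAAGATGGCGgcgtccgcag
Ndufs3: cacactaaggAACATGGCGgcggctgcag
Ndufs4: tgcctacaggAAGATGGCGgcggtctcaa
Atp5j: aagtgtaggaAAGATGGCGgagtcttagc
They cover Ndufs6 (chr13:73328431-73328459), Ndufa9 (chr6:126849097-126849125), Ndufc1 (chr3:51408915-51408943), Uqcrb (chr13:66905296-66905324), Atp5j2 (chr5:145191500-145191528), Ndufs3 (chr2:90904632-90904660), Ndufs4 (chr13:114388041-114388069) and Atp5j (chr16:84835046-84835074) on the minus strand. Ndufa7 (chr17:33824617-33824645) and Uqcrc1 (chr9:108936706-108936734) are on the plus strand. The ATG is the annotated start codon in all of these but Atp5j, whose match lay farthest from a start site, at 443 bp, while that of Ndufs6 lay at 10 bp. These genes encode subunits of complexes I, III and V.

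The 2 replicates differed by a general offset. Heights were greater in replicate 1 for 72 of 78 members, as for 12205 of 13679 genes open in both. After the log2 ratio of replicate 2 to replicate 1 was centred on the median of all genes, the members' median was -0.03 and their range -0.39 to 0.54. Ndufc2 (0.54), Ndufc1 (0.45) and Ndufa4 (0.39) were relatively highest in replicate 2. Ndufs8 (-0.39), Atp5g1 (-0.39) and Atp5g2 (-0.37) were relatively highest in replicate 1. For all genes the central 95% of these values ran from -0.44 to 0.58, and 0 of 78 members passed either limit.

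**Figure D5:**
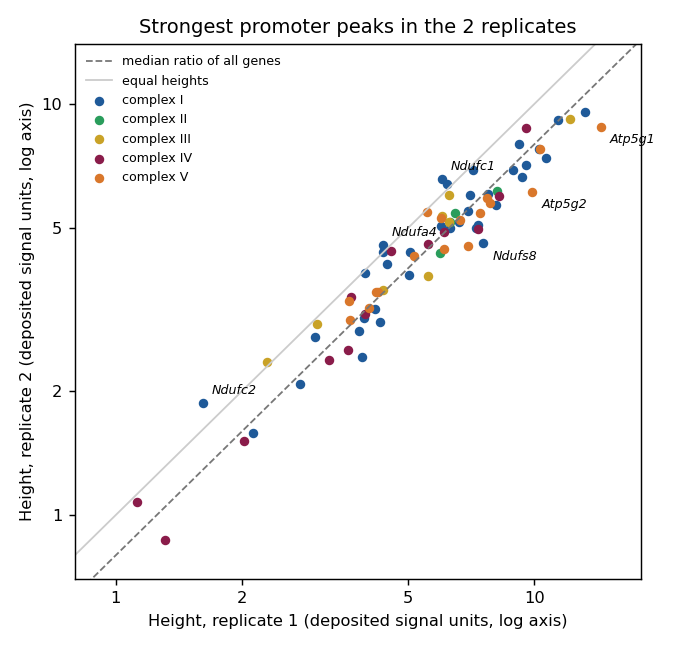
Height of the strongest promoter peak in replicate 1 (horizontal) and replicate 2 (vertical), both on log axes, for the 78 open members, coloured by complex. The solid line marks equal heights and the dashed line the median ratio of all genes. The named members are the 3 farthest from the dashed line in each direction, from -0.39 to 0.54 on the log2 scale.

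Other genes of the pathway were also mostly open. Of all genes, 62.6% were open in both replicates, and of those in CpG deciles 5 to 10, 91.3% were. The lists described here had median CpG ratios of 0.715 to 0.795, which fall in those deciles. All 48 assembly factors, which build the complexes without remaining in them, had a promoter peak in both replicates, with median heights of 5.76 and 4.75. The tallest were those of Ndufaf8 (12.6 and 11.7), which serves complex I, Pet100 (11.4 and 8.63), which serves complex IV, and Tmem126b (11.9 and 7.56), which serves complex I. All 17 regulators were open, over a range of 0.558 to 16.6 in replicate 1, with Sp1 (16.6 and 9.97), Esrra (15.8 and 10.0) and Creb1 (10.1 and 6.64) at the top.

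Of 11 other genes of the respiratory chain, 9 were open. Cycs, the somatic cytochrome c, measured 11.2 and 9.60, Etfdh, which passes electrons from fat oxidation to ubiquinone, 8.72 and 6.55, and Dhodh, of pyrimidine synthesis, 8.89 and 5.38. Cyct, the testis cytochrome c, and Slc25a31, an adenine nucleotide carrier of the germ line, had no peak in either replicate. Of 17 genes of pyruvate dehydrogenase and the citric acid cycle, 16 were open, with Mdh2 (12.7 and 9.98) and Pdhb (11.5 and 8.79) tallest, and only the testis form Pdha2 had no peak. These lists do not overlap the members, and they were described, not tested.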

How the data were processed

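DNase-seq was available for 2 replicates of 1 group. The authors deposited, per replicate, 2 peak lists with a height per peak (unit: signal, scale not stated), intervals with their false discovery rate (a q-value of 0.05 or less), and footprints with a constant of 0.01 (an unnamed p-value or q-value threshold), on mm10 per the labels. The aligner and the callers were not given in the sources used here. Below 200 steps, 100% of distinct heights came out as a whole number of steps (0.00656 and 0.00646 per replicate, tolerance 0.1 step). Depth in reads is unknown, so no intervals are given.

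The longer peak list (144270 and 124426 peaks) was the main one and the shorter (87039 and 74088) an alternative. Gene models were GENCODE M21 (basic) and sequence was GRCm38, whose chromosomes equal mm10. An overlap of 1 bp counted. Positions of peaks relative to genes use the nearest protein-coding start site. The scaling of log2 ratios was the median of all genes, -0.33. Motif matches were exact, overlapping matches on the 2 strands counted separately, and those in a peak shared by several genes once for footprint shares and once per gene for the start codon check. All 166 symbols of the pathway and marker lists were matched. Members, lists and motifs were chosen with earlier results of these data known.

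Named with values are the isoform pairs, subunit c, members without a peak, the 2 highest and the lowest open promoter per complex, the 3 largest replicate differences each way, the most footprints, and the highest 3 and the closed genes of each pathway list. A few genes outside this rule (core subunits, Atp5f1, Atp5j, X-linked members and shared promoters) were named after their values were seen. Individual values of 2 genes are left out. Functions were tested on simulated data. Tools were Python 3.11.15, numpy 2.4.6, pandas 2.3.3, pysam 0.24.0, samtools 1.23.1 and matplotlib 3.10.9. Alternatives covered the peak list, window, start sites, peak height, scaling, footprint counting, motif windows and leaving out each replicate. No sample-level test was possible with 1 group.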

Additional observations from a re-analysis of the deposited data

How the results depend on the processing

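The count of open members stayed between 77 and 80 of 85 under the 6 settings of peak list, window, start site and height and without either replicate. It was 77 with a window of 500 bp, which leaves out Atp5f1, and 80 with 2000 bp, which adds Cox6a2 and Ndufa4l2. The 2000 bp window also raised the restricted isoforms with a promoter peak from 2 to 4, while the 7 ubiquitous partners stayed open under all 8 of these alternatives and the assembly factors numbered 46 to 48. The median member height ranged from 4.92 to 6.01 over the single replicates and from 5.25 to 5.74 over the other settings. Without scaling, the median log2 difference of replicate 2 from replicate 1 was -0.35, and it was -0.16 after scaling to 101938 mutually overlapping peaks. Footprints per member had a median of 5 in the strongest peak and 8 in the whole window, the wider stretch.

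Motif shares moved with the stretch searched. In 100 bp they were 11.5% (ETS), 25.6% (NRF1), 5.77% (YY1), 18.6% (SP/KLF), 6.41% (NFY), 3.85% (CRE), 0% (USF) and 1.28% (ERR). In 300 bp they were 32.1% (NRF1), 25.6% (YY1), 37.2% (SP/KLF), 10.9% (NFY), 5.13% (USF) and 3.21% (AP-1). In 200 bp at the gene's 5′ end they were 25.6% (ETS), 24.4% (NRF1), 11.5% (YY1), 24.4% (SP/KLF), 3.85% (CRE), 2.56% (USF), 3.85% (AP-1) and 1.28% (CTCF). Within CpG deciles 5 to 10, an alternative chosen after seeing the data, they were 29.3% (NRF1), 9.33% (NFY), 8.00% (CRE), 1.33% (USF), 2.67% (ERR), 1.33% (AP-1) and 2.67% (CTCF). Relative to all genes in the same stretch, NRF1 stayed 2.11 to 2.95 times as frequent at members, YY1 2.62 to 4.24 times, ETS 1.23 to 1.89 times and SP/KLF 0.634 to 0.791 times. Without either replicate the shares ran from 20.5% to 23.1% (ETS), 16.7% to 17.9% (YY1) and 25.6% to 26.9% (SP/KLF). No paired analysis was possible because there was 1 group. With 2 replicates the SD is imprecise, and an absent peak says only that none was called at this depth.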

Other observations

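Strings known from muscle promoters were counted upstream of all genes, and they were picked after the sequences were seen. TAAAAATA, a form of the site bound by MEF2 factors in muscle, occurred in the 100 bp upstream of the 5′ end of 0.540% of all 21851 genes and of 1 member, Cox6a2. CAGCTG, an E-box of the kind bound by myogenic factors, occurred upstream of 5.21% of all genes and of 6 of the 85 members. These were Atp5o, Cox6a2, Cox6c, Cox8b, Cox8c and Ndufa8, so the string was not confined to the muscle isoforms. Of the 3 heart and skeletal muscle isoforms, Cox6a2 held both, Cox8b held CAGCTG and Cox7a1 held neither. The strings were counted only, and their use in any tissue was not tested.

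The tallest peak in a promoter window was not always close to a start site of the gene. For 6 of 78 open members it was centred over 300 bp from a start site in at least 1 replicate. The same count over all open genes was not made, and to which gene such a peak belongs was not tested. Within 500 bp of the start, the height of Ndufa11 was 5.30 and 4.44 in place of 8.88 and 6.90, while Uqcrh (6.24 and 5.999), Uqcr10 (4.35 and 3.52) and Atp5j (4.18 and 3.49) kept their values. The Atp5j peak was centred 512 and 532 bp downstream and only its edge reached into the 500 bp. Mitochondrial DNA had 0 peaks and 0 footprints in the files of either replicate, so the mitochondrially encoded subunits of the same complexes could not be set beside the nuclear ones.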
